A study of Homo sapiens with 3 samples.

Results

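LHX1, LHX5, LHX9, PAX2, TLX3, LBX1, LMX1B, POU4F1, ISL1 and BARHL1 are transcription factors that mark neuron subtypes of the hindbrain and spinal cord. These 10 genes were given as a list, were all present in the feature tables of the 3 libraries and are 10 of the 32732 genes that the tables share. Single-cell RNA sequencing was run on BJ cells, an established human foreskin fibroblast line, before induction (day 0, labelled BJs) and on cells labelled FiN or induced neuron cells at days 3 and 5. The labels give the genotype of all 3 groups as WT and the treatment of the FiN cells as reprogramming. BJ cells on poly-D-lysine were moved to a neuronal induction medium with 10 µM forskolin, a compound that stimulates adenylyl cyclase and so raises cAMP. A maturation medium with 10 µM forskolin followed on day 2, and forskolin was withdrawn on day 5. Each group was 1 library, so no replicate error could be measured, no test was run, and every interval covers counting error only.

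Developing hindbrain and spinal neurons are sorted into classes by such factors, which are switched on as progenitors leave the cell cycle. LHX1, LHX5 and PAX2 are classically found in inhibitory interneurons that use GABA or glycine, while TLX3, LMX1B and POU4F1 mark dorsal excitatory neurons and LHX9 and BARHL1 mark dorsal commissural neurons. LBX1 covers a broad set of dorsal neurons, both excitatory and inhibitory, and ISL1 is found in motor neurons and in a dorsal class. The transmitter of a cell can be read from SLC17A6, the vesicular glutamate transporter VGLUT2, from GAD2, a GABA-synthesising enzyme, and from SLC6A5, the neuronal glycine transporter GlyT2.

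Of the 5 factors called higher at day 5, PAX2 differed most between neuron-like and other clusters and LMX1B least, so the 250 bases before their RefSeq start (GRCh38.p14) are shown, 5′ to 3′ on the strand of the gene. RefSeq promoters were matched for 7 of the 10 genes, and LHX1, LHX5 and LBX1 were not among them. Capitals mark TGACG, the core of the cAMP response element. The PAX2 window is chr10:100735146-100735395 on the plus strand and the LMX1B window is chr9:126613678-126613927 on the plus strand.
PAX2 promoter: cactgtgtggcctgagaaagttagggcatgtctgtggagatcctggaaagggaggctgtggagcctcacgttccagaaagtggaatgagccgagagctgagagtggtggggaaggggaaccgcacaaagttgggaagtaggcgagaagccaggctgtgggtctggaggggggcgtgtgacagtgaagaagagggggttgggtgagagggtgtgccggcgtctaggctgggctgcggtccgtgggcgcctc
LMX1B promoter: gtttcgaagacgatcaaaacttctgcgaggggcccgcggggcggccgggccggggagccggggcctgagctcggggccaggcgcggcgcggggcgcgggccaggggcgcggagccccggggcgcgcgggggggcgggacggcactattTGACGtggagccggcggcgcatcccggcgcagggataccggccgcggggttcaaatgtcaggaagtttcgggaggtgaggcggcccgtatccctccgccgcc
The PAX2 window held 61.6% G and C and the LMX1B window 76.4%, against a median of 58.0% over all RefSeq promoter windows of this length. LMX1B had 1 TGACG, 102 bases before the start, and PAX2 had none on either strand. TGACG on either strand was found in 21.22% of 35116 such windows, the full element TGACGTCA in 1.65% and the homeodomain core TAATTA in 4.35%. These are matches of letters in a short window and were not tested for use.

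The libraries differed in depth and preparation. The day 0 library kept 16773 cells and 246546451 UMIs (median 14039 per cell), the day 3 library 11454 cells and 18743865 UMIs (median 1324) and the day 5 library 9219 cells and 51708522 UMIs (median 4374). The labels give nuclei at days 0 and 3 but whole cells at day 5, so preparation and day cannot be told apart. The set of genes counted also differed with the day, 33538 at days 0 and 3 and 36601 at day 5. The libraries shared few cell barcodes, 63 between days 0 and 3, 47 between days 0 and 5 and 27 between days 3 and 5. As a check of the labels, the day 0 fibroblasts had the collagen genes COL1A1 at 2027 CPM (UMIs per 1000000 UMIs) and COL1A2 at 917 CPM, and the day 5 cells had the neuronal genes MAP2 at 959.7 CPM and STMN2 at 337 CPM. At day 3 the neuronal markers DCX and STMN2 were at 0 UMIs, and the 12 pan-neuronal markers summed to 47.4 CPM against 3330 CPM at day 5. The day 5 file also held 50562 barcodes of 500 to 1000 UMIs, below the limit for a cell, whose summed counts are given below as the level in low barcodes. These may hold damaged cells or nuclei as well as RNA from outside cells, which were not told apart. The 1332091 barcodes under 100 UMIs are a second such set, given where it differs.

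All 10 factors were at or near 0 in days 0 and 3, where no gene had more than 9 UMIs in a library. By day 5 LHX1, LHX5, PAX2, LBX1 and LMX1B had risen, and the other 5 stayed under 1 CPM. A gene was called higher or lower when the CPM differed at least 2-fold, the larger value reached 1 CPM and the exact Poisson 95% intervals did not overlap. By this rule 5 of 10 were higher at day 5 than at day 0, beside 30.3% of all shared genes and 55.5% of genes that reached 1 CPM in either library. The same 5 of 10 were higher at day 5 than at day 3, beside 23.1% of all shared genes and 40.0% of those that reached 1 CPM. From day 0 to day 3 the count was 0 of 10, beside 21.7% and 46.3%. None of the 10 was called lower, beside 12.2% of all shared genes from day 0 to day 5, 17.2% from day 3 to day 5 and 7.6% from day 0 to day 3. Out of 10, the counts at day 5 were above the share over all shared genes in both comparisons. The 10 factors were chosen with earlier results of these data known, so these counts only describe the list. The 5 called factors reached 1 CPM only at day 5, so a count over them is not set against the shares of genes that reached 1 CPM. Counts out of 10 include the 5 factors under 1 CPM, so they have another base than those shares. TMM scaling, with factors of 0.583, 1.34 and 1.28 for days 0, 3 and 5, lowered each of the ratios of day 5 to day 0 given below by the same factor. With 1 or 2 UMIs counted as 3, the log2 ratio of PAX2 to day 0 was 12.44, and 11.31 under TMM, and that to day 3 was 8.72 and 8.78.

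**Figure D1:**
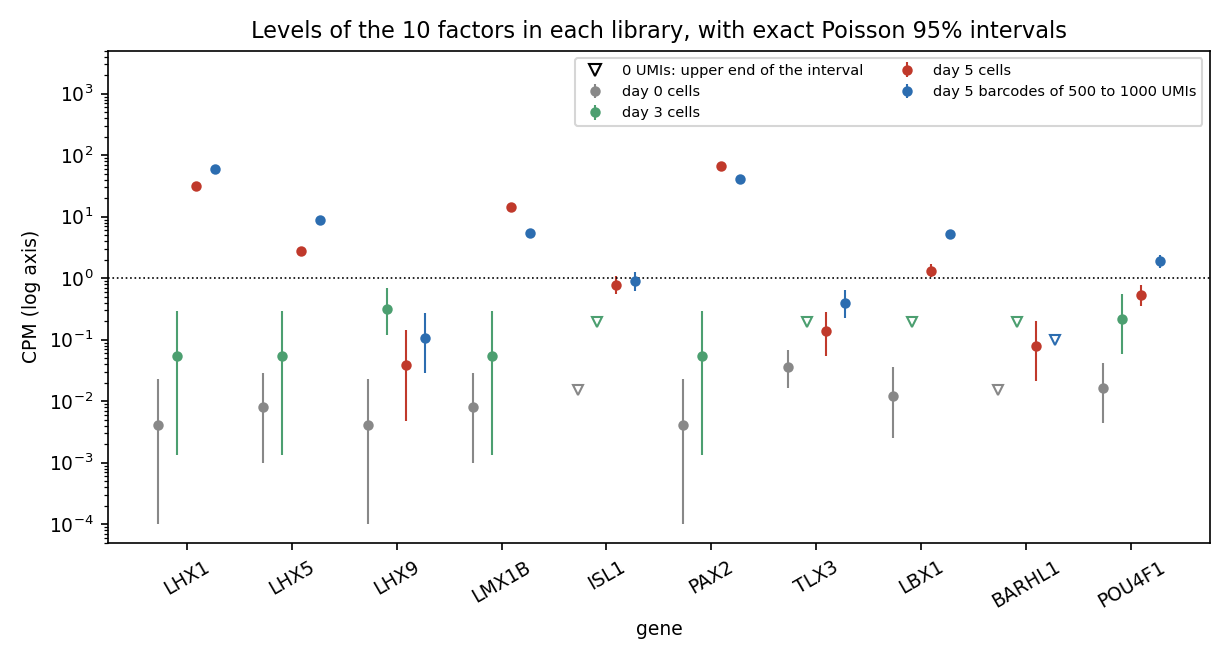
CPM of each of the 10 genes (x axis) on a log y axis in cells of days 0, 3 and 5 and in day 5 barcodes of 500 to 1000 UMIs, with exact Poisson 95% intervals. Open triangles give the upper end of the interval where a gene had 0 UMIs, and the dotted line is 1 CPM. LHX1, LHX5, PAX2, LBX1 and LMX1B lie above the line in day 5 cells.

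PAX2, a paired-box factor of inhibitory interneurons, lies on chromosome 10 from 100735603 to 100829941 on the plus strand (GRCh38, GENCODE 29). PAX2 had 1 UMI at day 0, 1 at day 3 and 3449 at day 5, levels of 0.00406, 0.0534 and 67.7 CPM (95% interval at day 5 65.5 to 70.03). The day 5 level stood apart from both earlier ones, by a ratio of 16693 to day 0 (2994 to 659546) and of 1267 to day 3 (227 to 50068). At day 5 PAX2 was seen in 1503 of 9219 cells, 16.3% (15.6 to 17.1, exact binomial), with up to 16 UMIs in a cell and 453 cells with 3 or more. Barcodes of 500 to 1000 UMIs held PAX2 at 40.6 CPM, so the level in cells was 1.67 times that level.

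LHX1, a LIM homeodomain factor, lies on chromosome 17 from 36936785 to 36944612 on the plus strand. LHX1 had 1 UMI at day 0, 1 at day 3 and 1597 at day 5, or 0.00406, 0.0534 and 31.4 CPM (29.8 to 32.9 at day 5). The ratio was 7730 to day 0 (1385 to 305493) and 587 to day 3 (105 to 23191). LHX1 was seen in 1159 cells, 12.6% (11.9 to 13.3), of which 97 had 3 or more UMIs. Low barcodes held more LHX1 per UMI than cells did, 60.7 CPM against 31.4 CPM. A barcode of 4374 UMIs, the median cell, would hold 0.266 UMIs of LHX1 at that level. LHX1 was lower in barcodes under 100 UMIs, at 38.9 CPM (32.9 to 45.7), an interval that just meets that of cells, while PAX2 was at 37.3 CPM there, close to its 40.6 CPM in low barcodes.

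LMX1B, a LIM homeodomain factor of dorsal excitatory and serotonergic neurons, lies on chromosome 9 from 126614443 to 126701032 on the plus strand. LMX1B had 2 UMIs at day 0, 1 at day 3 and 732 at day 5, or 0.00811, 0.0534 and 14.4 CPM (13.4 to 15.5 at day 5). The ratio was 1771 to day 0 (489 to 14655) and 269 to day 3 (48.1 to 10637). LMX1B was seen in 526 cells, 5.71% (5.24 to 6.199). Its level in cells was 2.62 times that of low barcodes, 5.49 CPM.

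LHX5, a paralog of LHX1, lies on chromosome 12 from 113462034 to 113472280 on the minus strand. LHX5 had 2 UMIs at day 0, 1 at day 3 and 139 at day 5, or 0.00811, 0.0534 and 2.73 CPM (2.29 to 3.22 at day 5), in 137 cells, 1.49% (1.25 to 1.75). The ratio was 336 to day 0 (91.4 to 2805) and 51.1 to day 3 (9.02 to 2032). LBX1, on chromosome 10 from 101226195 to 101229794 on the minus strand, had 3 UMIs at day 0, 0 at day 3 and 68 at day 5. That is 1.34 CPM at day 5 (1.04 to 1.69), 110 times day 0 (36.0 to 545) and at least 8.33-fold higher than day 3, where 3 UMIs were used for the count of 0. With the counting error of both libraries the lower limit of that ratio was 6.59. LBX1 was seen in 67 cells, 0.727% (0.564 to 0.922). Both genes were lower in cells than in low barcodes, which held LHX5 at 8.82 CPM and LBX1 at 5.31 CPM, and barcodes under 100 UMIs held 7.31 and 3.65 CPM. With the low barcode profile subtracted at 20% of the UMIs, LHX5 was at 1.20 CPM and still called, and LBX1 was at 0.342 CPM and no longer called against either day.

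The other 5 factors did not reach 1 CPM in any library. ISL1, on chromosome 5 from 51383391 to 51394738, had 0 UMIs at days 0 and 3 and 40 at day 5, 0.786 CPM, in 30 cells. POU4F1, on chromosome 13 from 78598362 to 78603560, had 4, 4 and 27 UMIs, the last in 25 cells at 0.530 CPM, beside 1.87 CPM in low barcodes. TLX3, on chromosome 5 from 171309284 to 171312134, had 9, 0 and 7 UMIs, each day 5 UMI in a cell of its own. LHX9, on chromosome 1 from 197911902 to 197935478, had 1, 6 and 2 UMIs, and BARHL1, on chromosome 9 from 132582185 to 132590266, had 0, 0 and 4. A level of 0 allows up to 0.0122 CPM at day 0 and 0.160 CPM at day 3, taking 3 UMIs as the limit. TLX3, LHX9 and BARHL1 were therefore at the edge of detection throughout.

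Of the 10 genes, 5 overlap an annotated gene on the opposite strand (LHX1, LHX5, TLX3, LBX1 and POU4F1). No source used here says if strand entered the counting, so reads of these pairs may not be told apart. PAX2, ISL1, LHX9 and BARHL1 overlap no other annotated gene, and LMX1B holds a short transcript on its own strand.

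Detection in day 5 cells was set beside cluster 1, a mesenchymal-like cluster of 755 cells (median 4028 UMIs) in which 5 of 9 mesenchymal markers stood at least 2-fold above the rest. PAX2 was seen in 16.3% of all day 5 cells and in 3.84% of that cluster (2.59 to 5.47). LHX1 was seen in 12.6% and 6.49% (4.84 to 8.49), and LMX1B in 5.71% and 1.46% (0.729 to 2.59). For these 3 genes the intervals did not overlap. LHX5, at 1.49% against 0.795% (0.292 to 1.72), had overlapping intervals. So did LBX1, at 0.727% against 0.662% (0.215 to 1.54). With each cell thinned to 2000 UMIs the shares were 9.23% and 1.72% for PAX2, 2.71% and 0.795% for LMX1B and 5.999% and 3.97% for LHX1. The LHX1 intervals then overlapped, 5.52 to 6.503 against 2.70 to 5.62, while in cells of at least 4000 UMIs they did not, at 14.5% (13.6 to 15.5) and 5.76% (3.64 to 8.59).

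PAX2 was the factor whose level differed most clearly between transmitter groups. Cells with SLC17A6 and neither GAD2 nor SLC6A5 numbered 505 (median 5441 UMIs), and cells with GAD2 or SLC6A5 and no SLC17A6 numbered 1435 (median 4786 UMIs). A further 166 cells had both kinds (median 10560.5 UMIs), and 7113 had none of the 3 genes (median 4187 UMIs). A single UMI placed a cell, and these genes were also found in the mesenchymal-like cluster and in low barcodes. SLC17A6 was seen in 2.12% of the mesenchymal-like cluster, GAD2 in 1.72% and SLC6A5 in 4.64%, against 7.28%, 8.74% and 14.0% of all day 5 cells. Low barcodes held SLC17A6 at 26.2 CPM, GAD2 at 22.9 CPM and SLC6A5 at 43.9 CPM, against 21.7, 24.8 and 87.1 CPM in cells, and barcodes under 100 UMIs held them at 16.4, 37.1 and 41.2 CPM. PAX2 was at 75.7 CPM in SLC17A6 cells (66.8 to 85.3) and at 206 CPM in GAD2 or SLC6A5 cells (197 to 215), 2.72 times higher in the second group. PAX2 was the 1 of 10 genes called between these groups, beside 0.312% of all shared genes and 0.58% of those reaching 1 CPM that were higher in GAD2 or SLC6A5 cells. In the opposite direction 0 of 10 were called, beside 0.602% and 1.12%. The PAX2 call held under each of 8 alternatives, 1 of them a limit of 10 CPM on the same cells and the others a different choice of cells, with ratios from 2.21 to 3.98, among them 2.77 when only cells of neuron-like clusters were used and 2.43 when 2 UMIs were needed to place a cell.

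Shares of cells gave the same order for PAX2. It was seen in 150 of 505 SLC17A6 cells, 29.7% (25.7 to 33.9), and in 722 of 1435 GAD2 or SLC6A5 cells, 50.3% (47.7 to 52.9). Cells with 3 or more PAX2 UMIs numbered 29 in the SLC17A6 group and 288 in the GAD2 or SLC6A5 group. Cells without any of the 3 transmitter genes showed PAX2 in 7.23% (6.64 to 7.85). Cells with both kinds of transmitter gene showed it in 70.5%, at a level of 174 CPM (157 to 192), and were the deepest group.

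None of the other 9 factors was called between these groups. LHX1 was at 48.2 CPM in SLC17A6 cells (41.2 to 56.1) and 68.1 CPM in GAD2 or SLC6A5 cells (62.9 to 73.6), intervals that did not overlap but a ratio of 1.41, under the 2-fold limit. LMX1B was at 15.7 CPM (11.8 to 20.4) and 12.1 CPM (9.94 to 14.5), with overlapping intervals. LHX5 was at 3.43 and 4.70 CPM and LBX1 at 1.43 and 2.88 CPM, from 12 and 44 UMIs and from 5 and 27 UMIs. ISL1 had 2 and 7 UMIs and POU4F1 3 and 9, while LHX9, TLX3 and BARHL1 had at most 2 in either group, too few to compare.

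**Figure D2:**
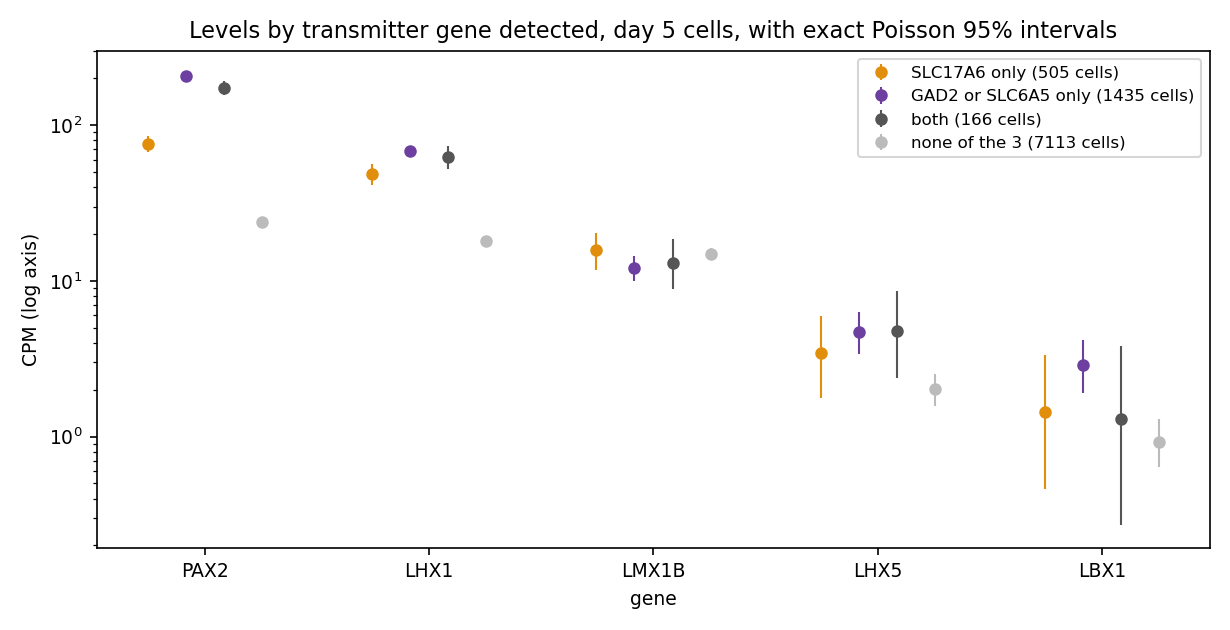
CPM on a log y axis of the 5 genes (x axis) that reached 1 CPM at day 5, in 4 groups of day 5 cells set by which transmitter genes had a UMI, with exact Poisson 95% intervals. PAX2 is at 75.7 CPM in SLC17A6 cells and 206 CPM in GAD2 or SLC6A5 cells, while the LMX1B intervals of these groups overlap.

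Read from the side of each factor, cells with PAX2 were 48.2% positive for SLC6A5 (45.7 to 50.8), 32.9% for GAD2 (30.5 to 35.3) and 17.8% for SLC17A6 (15.9 to 19.8). Over all day 5 cells these shares were 14.0%, 8.74% and 7.28%. Cells with LHX1 were 36.9% positive for SLC6A5, 25.5% for GAD2 and 17.0% for SLC17A6, each above the share over all cells. Cells with LMX1B were 14.4% positive for SLC6A5 (11.6 to 17.7), 11.2% for GAD2 (8.65 to 14.2) and 11.0% for SLC17A6 (8.48 to 14.0). LMX1B cells thus had the SLC6A5 share of all cells within the interval, and 74.1% of them (70.2 to 77.8) had none of the 3 transmitter genes, against 77.2% of all day 5 cells (76.3 to 78.0) and 34.2% of PAX2 cells (31.8 to 36.7). The median LMX1B cell held 6092 UMIs, the median PAX2 cell 5300 and the median day 5 cell 4374. Within bins of UMIs, LMX1B and SLC17A6 were together in 58 cells, 1.12 times expected (0.854 to 1.45). Of 137 LHX5 cells 44 had SLC6A5, 33 had GAD2 and 22 had SLC17A6, and of 67 LBX1 cells these counts were 25, 16 and 8. ISL1 cells numbered 30, of which 8 had SLC6A5 and 4 had SLC17A6.

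Clustering without the 10 factors split the day 5 cells into 11 clusters, of which 5 were neuron-like, with at least 3 of 12 pan-neuronal markers 2-fold above the rest. These 5 clusters held 2750 cells, and the other 6 held 6469. PAX2 was at 178 CPM in neuron-like clusters (172 to 184) and 6.85 CPM in the others (5.99 to 7.81), a ratio of 26.0, and 93.5% of its UMIs were in neuron-like cells. LHX1 was at 69.9 and 10.1 CPM, a ratio of 6.94. LMX1B was at 14.97 CPM (13.2 to 16.9) and 14.0 CPM (12.8 to 15.4), with no separation, and 63.0% of its UMIs were outside neuron-like clusters. LHX5 was at 5.03 and 1.46 CPM and LBX1 at 2.32 and 0.792 CPM. Of the 27 POU4F1 UMIs 24 were in neuron-like clusters, as were 31 of the 40 ISL1 UMIs.

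PAX2 and LHX1 are also known from kidney, PAX2 from the ear, and ISL1 and POU4F1 from retina and sensory ganglia, so markers of these tissues were summed in the same clusters. The 7 kidney and gonad markers summed to between 11.9 and 30.1 CPM in neuron-like clusters, with 4 to 6 of them at 0 UMIs, and to between 19.6 and 146 CPM in the other clusters. The 6 retina markers summed to at most 2.90 CPM in any cluster. The 8 sensory and neural crest markers summed to between 126 and 1134 CPM in neuron-like clusters, highest in cluster 2, and to between 36.4 and 89.2 CPM in the others. The 6 placode and otic markers, some of which are also in the sensory list, had the same order among the neuron-like clusters. They summed to 1133 CPM in cluster 2, 284.5 in cluster 9, 250.3 in cluster 6, 159 in cluster 3 and 113 in cluster 5, with 2 or 3 of them at 0 UMIs, and to between 26.6 and 86.4 CPM in the others. Their part in the levels of the 10 factors was not tested.

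Among the neuron-like clusters PAX2 was highest in cluster 9, led by RELN, NXPH1 and ADARB2, at 345 CPM (315 to 376). It followed in cluster 6, led by SLC6A5, PAX8 and GAD2, at 202 CPM (193 to 212). In clusters 9 and 6 all 4 GABA and glycine markers stood at least 2-fold above the rest. Cluster 2, led by EBF2, EYA2 and NEUROD4, was at 147 CPM (126 to 170), and cluster 5, led by TBX20, POSTN and SLC17A6, at 144 CPM (130 to 160), 2 values that did not separate. Cluster 3, led by CNTN5 and GABRA2, was at 90.3 CPM (80.9 to 100.3), and the 6 other clusters were between 5.46 and 12.7 CPM. LHX1 followed another order, 170 CPM in cluster 9 (150 to 193), 100.5 CPM in cluster 2 (83.7 to 120), 72.3 CPM in cluster 5 (62.4 to 83.4), 64.7 CPM in cluster 6 (59.5 to 70.2) and 32.2 CPM in cluster 3. Clusters 5 and 6 did not separate for LHX1. The LHX1 intervals of clusters 9 and 2 lay above that of low barcodes, 58.3 to 63.3 CPM, and those of clusters 5 and 6 overlapped it, while all 4 lay above that of barcodes under 100 UMIs, 32.9 to 45.7 CPM. LHX5 peaked in cluster 9 at 9.60 CPM (5.25 to 16.1), an interval that takes in the 8.82 CPM of low barcodes.

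**Figure D3:**
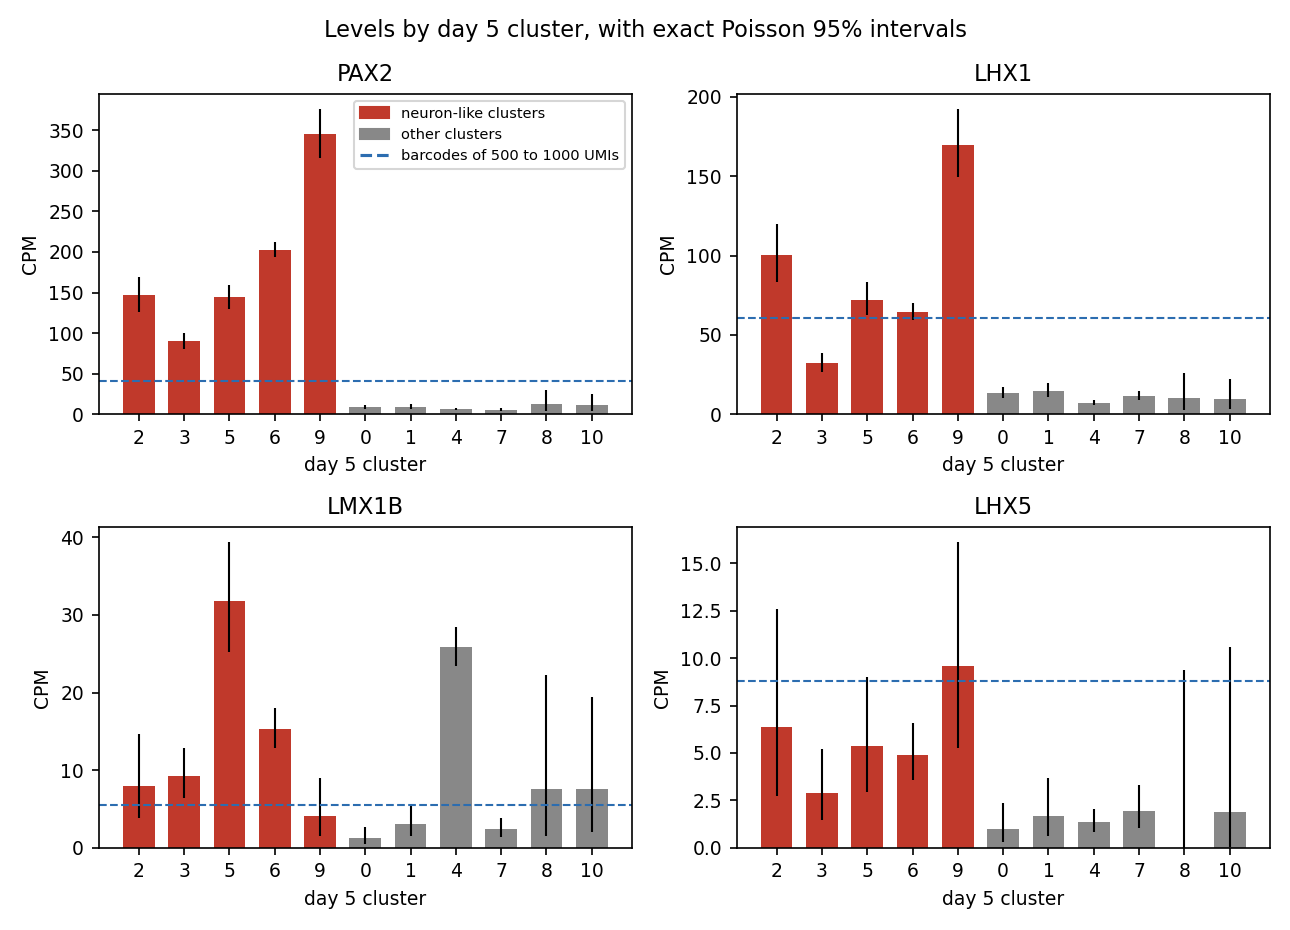
CPM (y axis) of PAX2, LHX1, LMX1B and LHX5 in the 11 day 5 clusters (x axis), with exact Poisson 95% intervals. Red bars are neuron-like clusters, grey bars the others, and the dashed line is the level in barcodes of 500 to 1000 UMIs. PAX2 exceeds that line in each neuron-like cluster, while LMX1B is high in cluster 5 and in cluster 4, which is not neuron-like.

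LMX1B had a divided distribution. Cluster 5 had 31.7 CPM (25.3 to 39.4) and cluster 4, which was not neuron-like, had 25.9 CPM (23.5 to 28.5) and 420 of the 732 UMIs. Cluster 4 was the largest, with 2762 cells led by TTC6 and DGKG. It had 4 mesenchymal, 3 astrocyte or oligodendrocyte and 1 neural progenitor marker raised, and was left unnamed. Summed, neural progenitor markers were at 4268.5 CPM and astrocyte or oligodendrocyte markers at 484 CPM there, each the highest of the 11 clusters. Mesenchymal markers were at 341 CPM, below clusters 1, 8 and 10. Clusters 0, 1 and 7 had LMX1B at 1.21, 3.09 and 2.38 CPM, so the gene was not spread evenly outside neurons. At a finer resolution, which gave 17 clusters, LMX1B was highest in a cluster of 851 cells led by RALYL and KCNC2, at 61.0 CPM (53.8 to 68.8) with 22.7% of its cells positive and with no pan-neuronal marker raised. The second was a neuron-like cluster of 258 cells led by POSTN, TBX20, SLC17A8 and SIM1, at 49.6 CPM (37.7 to 64.1).

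The same small neuron-like cluster held most of the ISL1, a factor of motor and some sensory neurons. It had 23 of the 40 ISL1 UMIs, in 14 of its 258 cells, at 19.7 CPM (12.5 to 29.5), against 0.897 CPM in low barcodes. Its PAX2 was the lowest of the 7 neuron-like clusters at this resolution, 28.2 CPM (19.4 to 39.6), and its LHX1 was 22.2 CPM. Neither was above its level in low barcodes, 40.6 CPM for PAX2 and 60.7 CPM for LHX1. TPH2, a serotonin-synthesising enzyme, was at 22.2 CPM there, FEV at 6.8 CPM, GATA3 at 29.9 CPM and GATA2 at 7.7 CPM. These genes were chosen after their values were seen, other serotonin genes are not given, and the type of these neurons was not tested.

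The finer clusters also divided SLC17A6 neurons by PAX2. A cluster of 332 cells with SLC17A6 at 246 CPM and GAD2 at 0.7 CPM had PAX2 at 228 CPM (204 to 254) and LHX1 at 111 CPM (94.3 to 129), with PAX2 seen in 47.6% of its cells. The ISL1 cluster above, with SLC17A6 at 68.4 CPM and GAD2 at 18.8 CPM, had PAX2 at 28.2 CPM. That was not above the 40.6 CPM of low barcodes or the 37.3 CPM of barcodes under 100 UMIs. The highest PAX2 of all was in a cluster of 256 cells led by SLC6A5 and PAX8, at 547 CPM (505 to 592), with 77.0% of its cells positive. PAX2 was thus found both in a cluster led by SLC17A6 and in clusters led by SLC6A5.

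PAX2 made up a larger part of the summed PAX2 and LHX1 UMIs in the neuron-like clusters than in clusters 0, 1, 4 and 7. It made up 75.8% in cluster 6 (74.0 to 77.5), 73.7% in cluster 3, 67.0% in cluster 9, 66.6% in cluster 5 (62.6 to 70.5) and 59.4% in cluster 2 (53.7 to 64.9). In clusters 0, 1, 4 and 7 it made up 40.0%, 37.6%, 45.2% (38.5 to 52.1) and 32.0% (23.8 to 41.0), and clusters 8 and 10 had too few UMIs to place. The part in barcodes outside cells depended on their depth, 40.1% (38.5 to 41.6) in those of 500 to 1000 UMIs and 49.0% (43.1 to 54.9) in those under 100 UMIs. Each neuron-like interval lay above the first of these, and each but that of cluster 2 above the second. The intervals of clusters 0, 1, 4 and 7 took in the first value, and that of cluster 7 lay below the second.

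**Figure D4:**
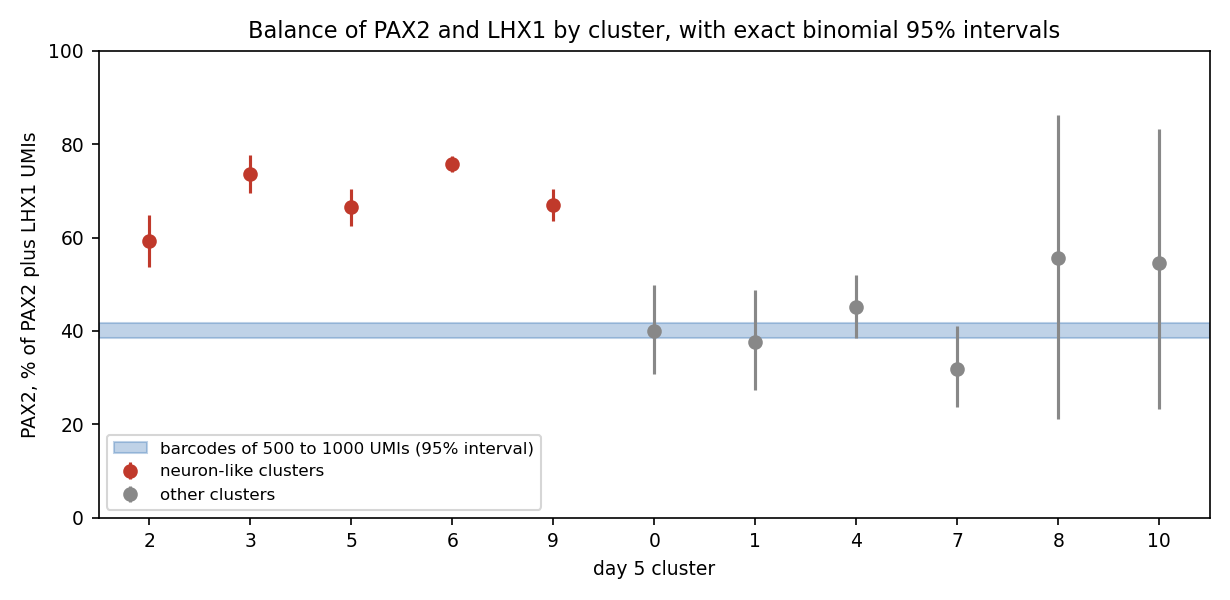
PAX2 as a percent of PAX2 plus LHX1 UMIs (y axis) in each day 5 cluster (x axis), with exact binomial 95% intervals. The blue band is the 95% interval of barcodes of 500 to 1000 UMIs, 38.5 to 41.6%. The 5 neuron-like clusters lie above the band and clusters 0, 1, 4 and 7 overlap it. The interval of barcodes under 100 UMIs, 43.1 to 54.9%, is not drawn and overlaps that of cluster 2.

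Pairs of factors in the same cell were compared with the number given by their shares within 10 bins of UMIs per cell. Of the 45 pairs, 23 were never seen together, 13 were seen in 1 to 9 cells and 9 in 10 or more. LHX1 and PAX2 were together in 552 cells, 2.55 times the expected 216 (2.34 to 2.77). Of these cells 529 were in neuron-like clusters, where 421 were expected, a ratio of 1.26. LHX5 and PAX2 were together in 58 cells, 2.20 times expected (1.67 to 2.85), and LHX1 and LHX5 in 40 cells, 2.04 times (1.46 to 2.77). PAX2 and LBX1 were together in 26 cells, 2.28 times (1.49 to 3.34), and PAX2 and POU4F1 in 11 cells, 2.05 times (1.02 to 3.66). Within the neuron-like clusters these ratios were lower, 1.27 for LHX5 with PAX2, 1.29 for LHX1 with LHX5, 1.24 for PAX2 with LBX1 and 0.98 for PAX2 with POU4F1. LMX1B did not share this pattern with LHX1 or PAX2, at 0.93 times with LHX1 in 72 cells (0.724 to 1.17) and 0.85 times with PAX2 in 90 cells (0.687 to 1.05). With LHX5 it was at 1.05 times in 10 cells (0.503 to 1.93). In fewer than 10 cells, LMX1B was seen with POU4F1 in 7, 3.60 times expected (1.45 to 7.43). It was seen with LBX1 in 8, 2.00 times (0.862 to 3.93), and with ISL1 and BARHL1 in 1 cell each. PAX2 together with a transmitter gene within the neuron-like clusters was seen at 1.39 times expected for GAD2, 1.36 for SLC6A5 and 0.92 for SLC17A6. In the same cells SLC17A6 and GAD2 were together at 0.52 times expected and GAD2 and SLC6A5 at 1.70 times.

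**Figure D5:**
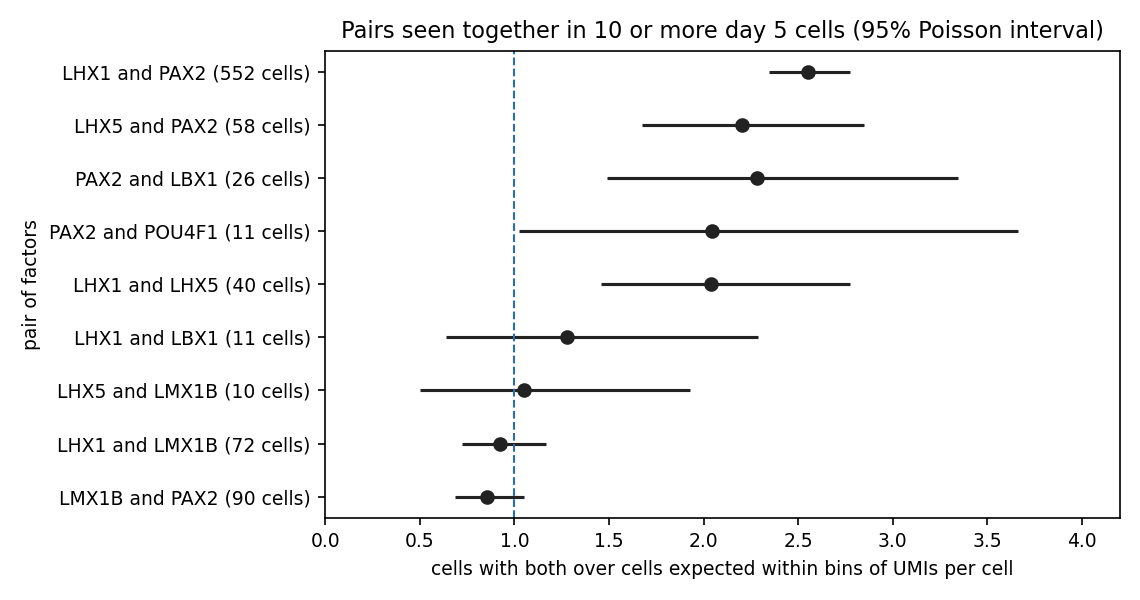
Cells with both genes over cells expected within bins of UMIs per cell (x axis), for the 9 pairs (y axis) seen together in 10 or more day 5 cells, with Poisson 95% intervals of the observed count. The 5 pairs above 2 are LHX1 with PAX2 and with LHX5, and PAX2 with LHX5, LBX1 and POU4F1, while both LMX1B pairs with PAX2 and LHX1 span 1.

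For the 4 factors with at least 100 UMIs at day 5, genes with a similar profile over the 11 clusters were found by Pearson r on log2(CPM + 1), as a description over clusters of 1 library. PAX2 was close to POU2F2 (r = 0.984) and GRAMD4 (0.979). LHX1 was closest to DISP3 (0.976), GSE1 (0.962) and AFAP1 (0.962). LHX5 was closest to AC013640.1 (0.950), NXPH4 (0.939) and GSE1 (0.937), and LMX1B to Z99756.1 (0.889), CADM1 (0.857) and TBL1XR1 (0.852).

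Other transcription factors of hindbrain and spinal neuron classes were counted from a list of 66, of which 65 were found. At day 5, 28 of 65 were higher than at day 0 and 3 were lower, beside 30.3% and 12.2% of all shared genes. Against day 3 these counts were 28 and 5, beside 23.1% and 17.2%. The highest at day 5 were ZFHX3 at 443 CPM, ZFHX4 at 243 CPM, EBF1 at 187 CPM, EBF3 at 110 CPM, EBF2 at 77.5 CPM and PROX1 at 62.1 CPM. EBF2, a factor of early postmitotic neurons, had 0 UMIs at day 0 and 2 at day 3, whereas ZFHX3 was already at 41.6 and 165 CPM. Between SLC17A6 and GAD2 or SLC6A5 cells, 3 of 65 were higher in the former, beside 0.602% of all shared genes, OTP at 29.7 against 9.18 CPM, EVX1 at 4.57 against 1.07 CPM and SIM1 at 6.28 against 1.07 CPM. The 4 higher in GAD2 or SLC6A5 cells, beside 0.312% of all shared genes, were PAX8 at 63.9 against 13.4 CPM, EN1 at 12.4 against 5.14 CPM, TFAP2B at 13.8 against 5.14 CPM and PRDM8 at 13.6 against 4.28 CPM. Low barcodes held OTP at 28.3 CPM, EVX1 at 3.80 CPM and EN1 at 13.5 CPM, each within the interval of the higher group. The intervals were 24.3 to 36.0 CPM for OTP, 2.61 to 7.42 for EVX1 and 10.2 to 14.9 for EN1. The EVX1 call rested on 16 and 10 UMIs. For SIM1, PAX8, TFAP2B and PRDM8 the interval of the higher group lay above the level in low barcodes. PAX8 is a paralog of PAX2, and both EN1 and PAX2 are known from inhibitory V1 interneurons, while EVX1 marks excitatory V0 neurons. Whether these cells were of those classes was not tested.

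Of 18 transmitter genes, 14 were higher at day 5 than at day 0 and 0 were lower, and 14 and 1 against day 3, beside the same shares of all shared genes. SLC6A5 was at 87.1 CPM at day 5, SLC5A7, the choline transporter, at 26.6 CPM, GAD2 at 24.8 CPM and SLC17A6 at 21.7 CPM, and these 4 had at most 1 UMI in each earlier library. Among 29 HOX genes, which mark position along the body axis, 3 were higher and 8 lower at day 5 than at day 0, and 1 and 14 against day 3, so fewer were higher and more were lower than the shares over all shared genes. The 1 HOX gene higher than at day 3 was HOXD3, at 16.5 CPM with 0 UMIs in both earlier libraries. HOXB3 was at 60.0, 98.8 and 102 CPM over days 0, 3 and 5, and HOXB2 at 76.1, 31.1 and 11.5 CPM. Of 12 forebrain and midbrain factors 3 were higher and 0 lower at day 5 than at day 0, near the 30.3% of all shared genes for the higher ones, and 1 and 5 against day 3. Over the 10 factors the median log2 ratio of day 5 to day 0 was 6.40 and of day 5 to day 3 2.68, beside 2.28 and -0.72 over all shared genes. These medians count fewer than 3 UMIs as 3, so they partly follow the depth of the libraries. The 2.28 is the value that any gene with fewer than 3 UMIs at both day 0 and day 5 is given, as LHX9 was. It is thus set by depth, and 6.40 beside it is not a contrast in expression.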

How the data were processed

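The authors deposited UMI count matrices (whole counts per gene and barcode, not normalized) for 3 libraries, 1 per group. Per the submitters' processing notes they come from Cell Ranger 4.0.0 on GRCh38. The day 5 matrix holds another set of genes than those of days 0 and 3, 36601 against 33538, and only shared genes were compared. No source used here states how introns and strand were handled. Day 5 was deposited unfiltered, and a barcode was called a cell at 1/10 of the UMIs at percentile 99 among the 10000 largest barcodes (2155 UMIs). All cells needed 500 UMIs, 300 genes and at most 20% mitochondrial UMIs. No doublet caller was run and doublets were kept. UMIs were summed per library, cluster or cell group and divided by the total over 32732 shared genes (CPM), with exact Poisson 95% intervals. Shares of cells have exact binomial (Clopper-Pearson) 95% intervals. Day 5 was clustered in scanpy 1.11.5 with igraph 0.11.9 (2000 variable genes without the 10 factors, log counts per 10000, 30 components, 15 neighbours, Leiden resolution 0.5, with resolution 1 as the finer alternative). TMM came from edgeR 4.0.16. The named genes were all 10 factors, the 3 transmitter genes, the 3 most similar genes per factor and up to 6 genes per list with the largest day 5 CPM. The other genes given for the finer clusters and for the transmitter contrast, and the markers of the library check, were chosen after their values were seen. A few genes that the rule would name are not reported here. The 10 factors and the gene lists were chosen with earlier results of these data known. The call rule was tested on simulated Poisson counts, with fold changes placed only in genes of higher counts. Its recovery of changes in genes with few UMIs, such as LBX1, was not covered.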

Additional observations from a re-analysis of the deposited data

How the results depend on the processing

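The count of factors higher at day 5 rested on the CPM limit. With a limit of 10 CPM it was 3 of 10 against day 0 and 3 of 10 against day 3 (LHX1, PAX2 and LMX1B), and with no CPM limit it was 8 against day 0, where ISL1, BARHL1 and POU4F1 were added. With no limit 2 factors, LHX9 and POU4F1, were higher at day 3 than at day 0, from 6 and 4 UMIs. TMM, totals without mitochondrial and ribosomal protein genes, the strict cell filter and every day 5 barcode of 1000 UMIs each left 5 against both earlier days. Subtracting the low barcode profile at 20% of the UMIs left 4, without LBX1. TMM lowered the log2 ratio of LBX1 to day 0 from 6.78 to 5.64, and those of the other 4 by the same amount. Pairs seen together in 10 or more cells and at 1.5 times expected numbered 5, and 3 when cells were thinned to 2000 UMIs. The thinned ratio of LHX1 with PAX2 was 3.17, and those of LMX1B with PAX2 and LHX1 were 0.65 and 0.67. The log2 ratio of LMX1B between SLC17A6 cells and GAD2 or SLC6A5 cells was 0.38, 0.98 in thinned cells and 0.91 without the 10% deepest cells. Of 6 factors with at least 30 UMIs, each peaked in a neuron-like cluster at resolution 0.5, and 5 did at resolution 1, LMX1B being the exception. Not every peak separated at resolution 0.5. The LMX1B interval of cluster 5, 25.3 to 39.4 CPM, overlapped that of cluster 4, 23.5 to 28.5 CPM, which is not neuron-like. The LHX5 peak interval took in its 8.82 CPM in low barcodes. No paired analysis was possible because each group is 1 library, and for the same reason no replicate could be left out.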
